A study of Xenopus tropicalis with 5 samples.

Results

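The mitotic genes plk1, incenp, zwilch and cenpt were examined in maps of 5-methylcytosine (m5C) in mRNA of Xenopus tropicalis stage 0 embryos. Every listed site whose gene symbol was one of these 4 was taken, which gave 18 of the 23009 sites and 4 of the 6783 genes found in any list. The genes were chosen by measured values, namely a level called different between a lower RNA input and 100 ng in plk1, incenp and zwilch, and one of the highest levels of the 100 ng list in cenpt. Levels and differences from 100 ng are therefore given as a description. Calls against 100 ng come from a test over all listed sites, and for these genes they are only counted beside the share called among all sites and support nothing.

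Polyadenylated RNA came from a pool of wild-type stage 0 embryos, and all libraries share this stage and genotype. By the labels, inputs of 5, 10 and 20 ng had 1 library each and the input of 100 ng had 2. The study's text calls such pairs technical replicates, while the legend of its replicate comparison speaks of biological replicates. The pair at 100 ng was deposited as a single list, so no group had a replicate spread and every comparison is between single lists. The protocol text is the same for all libraries and describes conversion of at least 100 ng, so input means the labelled amount. In RNA bisulfite sequencing (RNA BS-seq) an unmethylated cytosine is read as T while m5C stays C, so the percentage of reads that kept the C at a site is its methylation level. Sites were listed only from 20 reads and a level of 10% upward. A site that is not listed can have failed either minimum or another filter and is not a site at 0. Intervals of levels are exact Clopper-Pearson 95% intervals of unconverted over all reads, and they cover counting error only, since no molecular identifiers are described. Coordinates are those of the Xenbase X. tropicalis v9.1 assembly used by the authors, and sites are numbered from upstream to downstream along the strand of the gene.

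Polo-like kinase 1, the product of plk1 (Plx1 in Xenopus), is a mitotic kinase that acts in mitotic entry, spindle assembly and cytokinesis. INCENP is the scaffold of the chromosomal passenger complex and binds Aurora B kinase. Zwilch is a subunit of the Rod-Zw10-Zwilch complex, which brings dynein and the Mad1-Mad2 checkpoint proteins to unattached kinetochores. CENP-T is a histone-fold protein of the centromere that links centromeric chromatin to the Ndc80 complex, the microtubule-binding part of the kinetochore. The early cleavage divisions of a frog embryo run on maternal mRNA and protein, before transcription from the zygotic genome starts. In animal mRNA, m5C is laid down by NSUN2 (Type I sites, followed by a G-rich stretch) and NSUN6 (Type II sites, with the motif CUCNA in which the first C is methylated).

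The bases downstream of the methylated C were known for 2 of the 18 sites, from a table of the study that lists sites whose cytosine is shared by both Xenopus species. They are shown because only the first of them matches the Type II motif, and the letters run 5′ to 3′ from the base after the methylated C.
plk1 site 3, minus strand: TCCA
cenpt site 4, plus strand: GAGG
With the methylated C before them, the plk1 letters match the Type II motif. TCCA was found after 244 of the 1223 X. tropicalis sites of that table (20.0%), and TCNA, which includes TCCA, after 249 (20.4%). The cenpt letters, GAGG, were found after 37 of them (3.03%) and do not match that motif. These are shares of that table, which is limited to cytosines shared by both species, and not of the whole lists. Among all maternal sites, the study reports a smaller Type II share than that of TCNA here in most of its species. In the study, sites with the motif CUCNA count as Type II and all others as Type I. By that rule, and from the letters alone, plk1 site 3 is Type II and cenpt site 4 is Type I. For incenp site 2 the study's own annotation gives Type I and coding sequence. For the other sites neither motif nor transcript region was known.

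The whole lists held 13153, 12341, 13178 and 18524 sites for 5, 10, 20 and 100 ng, with median levels of 20.9 to 22.4% and median coverages of 80 to 183 reads per site. Of 17 genes known for egg and early embryo RNA, such as vegt, gdf1 and nanos1, 11 had a listed site at 100 ng, while zar1, dazl, dnd1, bmp15, buc and zp3 had none. Of 12 genes of differentiated tissue only myl1 had one. A gene enters these lists only through a called site, so absence does not show absence of the RNA.

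The 4 genes had 15 listed sites at 5 ng and 16 in each of the other lists. Of the 16 sites at 100 ng, the 5 ng list held 14 (87.5%, interval 61.7 to 98.4%), the 10 ng list 15 (93.8%, 69.8 to 99.8%) and the 20 ng list 16 (100%, 79.4 to 100%). Among all sites of the 100 ng list these shares were 60.2%, 56.9% and 61.3% in the same order. The choice of plk1, incenp and zwilch, though not of cenpt, required a called site listed in both inputs. The plk1 and incenp sites also had far more reads than the median site at 100 ng. Nothing is therefore read from the gap.

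The plk1 gene (gene5779) carried 6 sites on the minus strand of chromosome 9, spread over 6224 nt of genome between positions 15422916 and 15429140, and all 6 were listed at every input. At site 1 (position 15429140) the level was 13.3% with 5 ng, 13.4% with 10 ng, 14.9% with 20 ng and 13.4% with 100 ng (1792/13358 reads). At site 2 (15429076), 64 nt downstream, it was 22.5%, 22.2%, 23.7% and 22.7% (3108/13721 reads) in the same order of inputs. The intervals of these neighbours did not overlap at any input. Site 3 (15427224), the TCCA site, had 39.2% with 5 ng (1469/3747 reads, interval 37.6 to 40.8%), 39.8% with 10 ng (1242/3123 reads, 38.0 to 41.5%), 38.6% with 20 ng (1447/3753 reads, 37.0 to 40.1%) and 44.2% with 100 ng (4982/11259 reads, 43.3 to 45.2%). It was the only plk1 site at which the 100 ng interval lay apart from those of all 3 lower inputs. Site 4 (15424127) was the lowest, with 11.9%, 13.3%, 12.6% and 12.03% (1286/10692 reads) at 5, 10, 20 and 100 ng. Site 5 (15423026) had 36.9%, 39.0%, 37.3% and 38.8% (8837/22764 reads). Site 6 (15422916), 110 nt downstream of site 5, was the highest with 53.9%, 52.6%, 52.0% and 54.3% (6303/11601 reads). From highest to lowest the order was site 6, 3, 5, 2, 1 and 4 in each of the 4 lists. Over the 4 lists, site 3 (38.6 to 44.2%) overlapped site 5 (36.9 to 39.0%), and site 1 (13.3 to 14.9%) overlapped site 4 (11.9 to 13.3%), while the other neighbours in this order did not overlap.

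In incenp (gene4449, chromosome 4, plus strand) 2 sites, 639 nt apart, were listed at every input. Site 1 (position 13637717) had 30.3% with 5 ng (1747/5775 reads, interval 29.1 to 31.5%), 29.6% with 10 ng (2540/8579 reads, 28.6 to 30.6%), 28.6% with 20 ng (2510/8788 reads, 27.6 to 29.5%) and 29.3% with 100 ng (10166/34683 reads, 28.8 to 29.8%). Its coverage was the 13th highest of all sites in the 100 ng list and the 4th highest at 10 ng. Site 2 (13638356), the coding-sequence site, had 64.4% with 5 ng (751/1167 reads, 61.5 to 67.1%), 69.9% with 10 ng (650/930 reads, 66.8 to 72.8%), 67.3% with 20 ng (746/1109 reads, 64.4 to 70.0%) and 74.3% with 100 ng (3004/4041 reads, 73.0 to 75.7%). The intervals of all 3 lower inputs lay below that of 100 ng at site 2, while those of all 4 lists overlapped at site 1. Site 2 exceeded site 1 by 34.1 points at 5 ng, 40.3 at 10 ng, 38.7 at 20 ng and 45.0 at 100 ng. Site 1 had 4.95, 9.22, 7.92 and 8.58 times the reads of site 2 in the same order, so the more methylated site was the less covered one.

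The zwilch gene (gene5176, chromosome 3, minus strand) was covered far less, and only 1 of its 3 sites was listed at every input. That site, site 3 (position 116951504), had 37.4% with 5 ng (40/107 reads, interval 28.2 to 47.3%), 23.7% with 10 ng (23/97 reads, 15.7 to 33.4%), 24.3% with 20 ng (26/107 reads, 16.5 to 33.5%) and 19.0% with 100 ng (88/463 reads, 15.5 to 22.9%). The 5 ng interval lay above that of 100 ng and overlapped those of 10 and 20 ng. Site 1 (116952590), 1086 nt upstream, was listed at 20 ng with 25.9% (7/27 reads) and at 100 ng with 27.3% (12/44 reads). Site 2 (116952540), 50 nt downstream of site 1, was listed at 5 ng alone, with 11.1% (7/63 reads, 4.59 to 21.6%), close to the minimum level of a listed site. The order of levels among the zwilch sites cannot be given, since no list held all 3.

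In cenpt (gene2742, chromosome 7, plus strand) 7 sites lay over 2333 nt, between positions 31035333 and 31037666, and ranged from near the minimum level to almost complete methylation. Site 7 (31037666) had 97.1% with 5 ng (101/104 reads), 93.5% with 10 ng (86/92 reads), 94.1% with 20 ng (95/101 reads) and 98.3% with 100 ng (297/302 reads, interval 96.2 to 99.5%). It ranked 47th, 136th, 138th and 13th by level in the lists of 5, 10, 20 and 100 ng, and only 1.95 to 2.32% of the sites of a list reached 90%. Site 5 (31036635) was the next, with 81.5% (88/108 reads, 72.9 to 88.3%), 75% (69/92 reads), 75% (69/92 reads) and 69.3% (208/300 reads, 63.8 to 74.5%) at 5, 10, 20 and 100 ng. Over the 4 lists, site 5 (69.3 to 81.5%) did not overlap site 7 (93.5 to 98.3%) or any site below it.

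The other cenpt sites were lower. At site 1 (31035333) the level was 16.1% with 5 ng (9/56 reads), 35.2% with 10 ng (19/54 reads), 21.9% with 20 ng (14/64 reads) and 21.97% with 100 ng (38/173 reads). Site 2 (31035461) had 24.1%, 22.03%, 30.6% and 25.7% (99/385 reads) in that order, and site 3 (31035472) had 22.6%, 24.6%, 25% and 16.9% (61/361 reads). Sites 2 and 3 are 11 nt apart, and at 100 ng their intervals, 21.4 to 30.4% and 13.2 to 21.2%, did not overlap, while at each lower input they did. The ranges of sites 1, 2 and 3 over the lists overlapped each other, so these 3 sites cannot be ordered. Site 4 (31035800), the GAGG site, had 12.1% with 10 ng (47/389 reads), 12.01% with 20 ng (55/458 reads) and 10.9% with 100 ng (217/2000 reads), and was not listed at 5 ng. Site 6 (31037481) was listed at 10 ng alone, with 13.6% (6/44 reads, 5.17 to 27.4%). The sites missing from some list were thus those of low coverage or of a level just above the minimum.

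**Figure D1:**
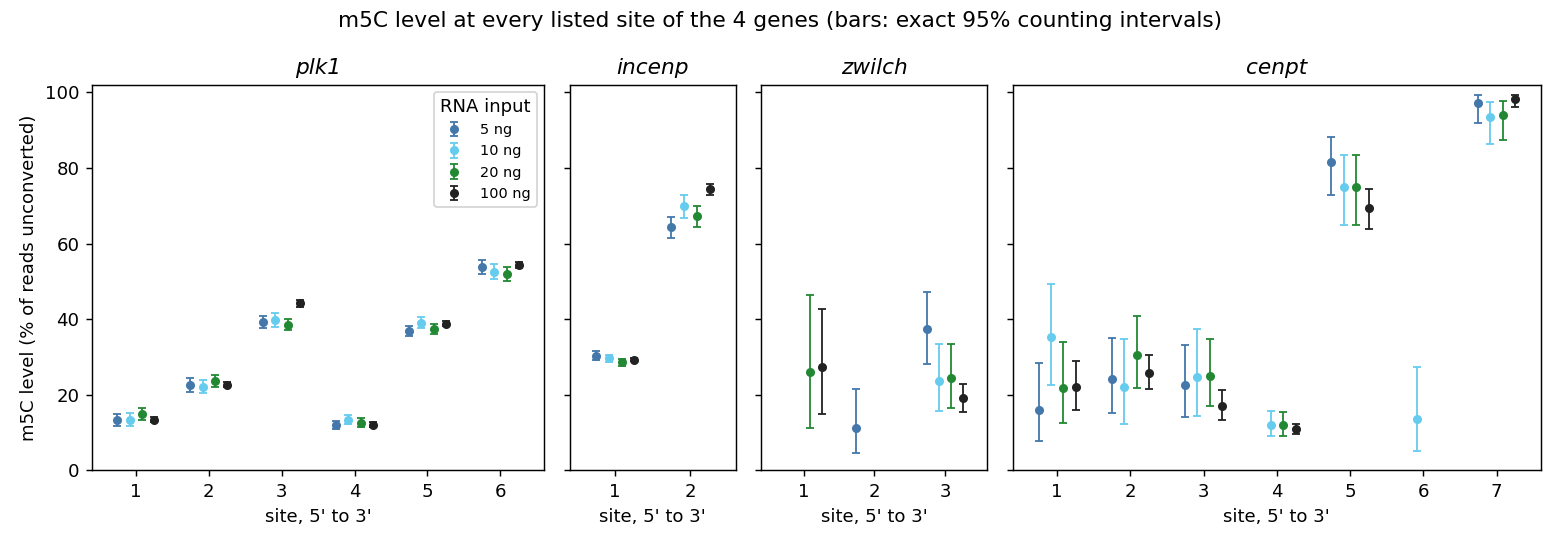
m5C level (percentage of reads unconverted) at each listed site of plk1, incenp, zwilch and cenpt, numbered 5′ to 3′ along the gene, at 5, 10, 20 and 100 ng of RNA. Points are single lists and bars are exact 95% counting intervals. Within plk1 the order of the sites was the same in all 4 lists, with site 3 at 38.6 to 39.8% in the lower inputs and 44.2% with 100 ng, whereas the zwilch and cenpt intervals were wide.

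Depth varied widely between the 4 genes. At 100 ng the plk1 sites had 10692 to 22764 reads, which placed the least covered of them at the 99.37 percentile of the list. They had 1680 to 5156 reads at the lower inputs. The incenp sites had 4041 and 34683 reads at 100 ng. The cenpt sites had 173 to 2000 reads and the zwilch sites 44 and 463, against a median of 183 reads over the list. Reads in a site list follow both the amount of an mRNA and how well a position was sequenced, and these cannot be told apart here. Neighbouring sites in 1 gene of the 100 ng list were separated by a median of 1524 nt of genome, and 8.66% of 12066 such pairs were within 30 nt, as sites 2 and 3 of cenpt were. At least 6 sites, as in plk1 and cenpt, were found in 11.5% of the genes of that list.

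**Figure D2:**
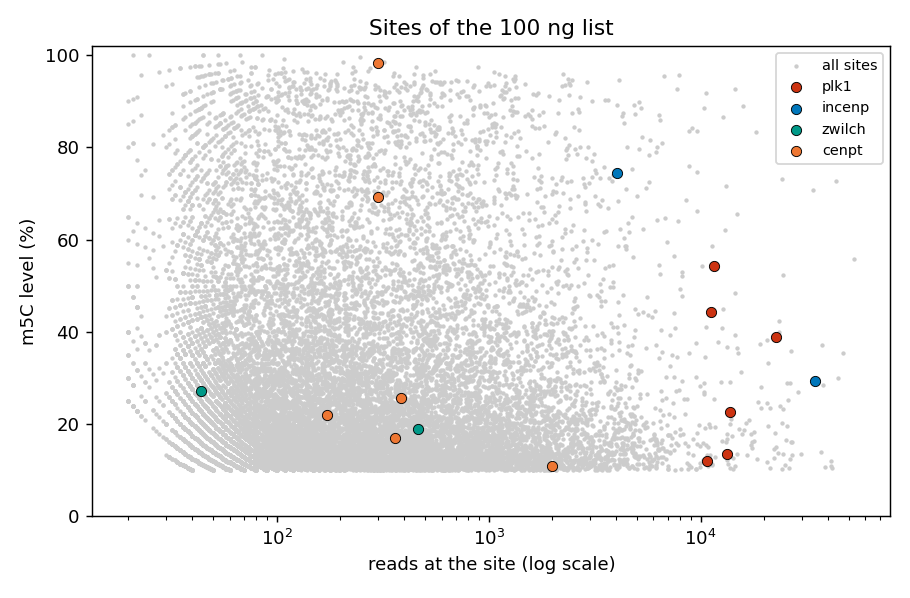
Level (%) against number of reads (log scale) for the 18524 sites of the 100 ng list, with the 16 sites of the 4 genes marked. The plk1 and incenp sites lie at the right, between 4041 and 34683 reads, and the cenpt and zwilch sites between 44 and 2000 reads.

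Setting the lower inputs against 100 ng asks how far a level measured from little RNA departs from that at 100 ng. Unconverted against converted reads were compared between lists with Fisher's exact test, two-sided and adjusted by Benjamini-Hochberg over every site covered by 50 reads or more in both. A level was called different at 3 of 14 sites of the 4 genes at 5 ng, where 0.278% of all 7923 sites were called. Of the 3, 2 were lower (0.24% of all sites) and 1 was higher (0.0379%) than at 100 ng. The count was 1 of 15 sites at 10 ng, where 0.0406% of 7385 were called, with 1 lower (0.0271%) and 0 higher (0.0135%). It was 2 of 15 sites at 20 ng, where 0.15% of 8018 were called, with 2 lower (0.112%) and 0 higher (0.0374%). At an unadjusted p under 0.05 there were 5 of 14, 3 of 15 and 5 of 15 sites, against 8.75%, 8.61% and 7.4% of all sites. Of the genes, plk1, incenp and zwilch were chosen for the adjusted calls and cenpt for its level at 100 ng. Nothing is therefore read from these counts. The called sites were plk1 site 3 at each lower input, incenp site 2 at 5 and 20 ng, and zwilch site 3 at 5 ng. These calls depend on the assumed spread, since 2, 0 and 1 sites were called with the binomial variance multiplied by 1.42, the excess seen between the lower inputs, and on the same reads a call that stays is no support for it either.

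At plk1 site 3 the difference was -5.04 points with 5 ng (95% interval by Newcombe's method -6.85 to -3.22), -4.48 with 10 ng (-6.41 to -2.52) and -5.69 with 20 ng (-7.49 to -3.88). The other 5 plk1 sites had differences between -2.33 and 1.44 points over the 3 inputs. The gene was chosen by its call at site 3, so nothing is read from this contrast between its sites. At incenp site 2 the difference was -9.98 points with 5 ng (-13.1 to -6.96), -4.45 with 10 ng (-7.75 to -1.27) and -7.07 with 20 ng (-10.2 to -4.04). At incenp site 1 it was 0.94, 0.30 and -0.75 points, with every interval including 0. For zwilch site 3 the differences were 18.4 points with 5 ng (8.98 to 28.4), 4.70 with 10 ng (-3.59 to 14.6) and 5.29 with 20 ng (-2.81 to 14.8), above 100 ng rather than below. The cenpt differences ranged from -5.89 to 13.2 points and no cenpt site was called. For scale, the median absolute difference from 100 ng was 0.940, 0.914 and 0.799 points for 5, 10 and 20 ng over the 339, 352 and 436 sites with at least 1000 reads in both lists. With at least 50 reads in both lists, the minimum met by the zwilch and cenpt sites compared here, it was 2.56, 2.58 and 2.41 points. The median difference over all sites with at least 50 reads was between -0.26 and 0.01 points. All 3 comparisons use the same 100 ng list, and whether that list or the lower inputs carry the offset at a site cannot be told apart.

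**Figure D3:**
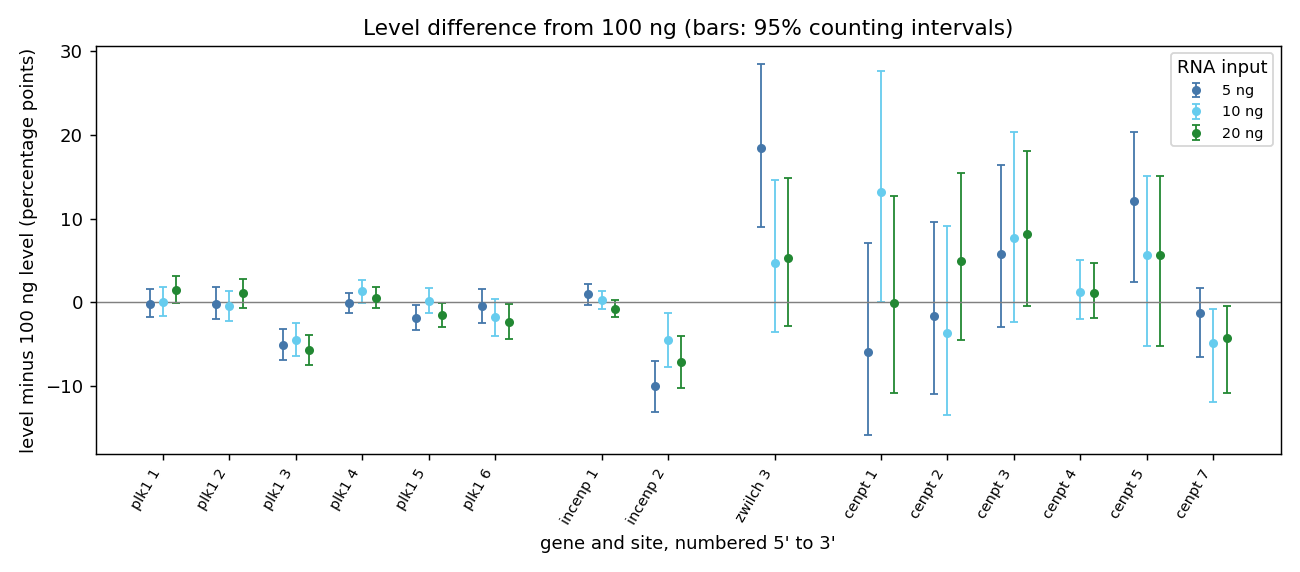
Level at 5, 10 and 20 ng minus the level at 100 ng, in percentage points, for the sites of the 4 genes with at least 50 reads in both lists. Bars are 95% counting intervals, and all 3 points share the 100 ng list. At plk1 site 3 and incenp site 2 the 3 points lie below 0, at -4.48 to -5.69 and -4.45 to -9.98 points.

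The lower inputs were also compared with each other, which leaves out the 100 ng list. The reads of these lists had taken part in the choice of the genes, so these comparisons are not wholly free of it. By the same test 0 of 14 sites differed between 5 and 10 ng (0.0146% of all 6835 sites called), 0 of 14 between 5 and 20 ng (0.0279% of 7179) and 0 of 15 between 10 and 20 ng (0.0429% of 6986). The unadjusted p was under 0.05 at 4, 1 and 0 of these sites, against 7.21%, 6.66% and 6.54% of all sites. The smallest adjusted p was 0.438, 0.641 and 0.856 by Fisher's exact test. The 4 sites for 5 and 10 ng were incenp site 2, with -5.54 points (-9.54 to -1.49), zwilch site 3, with 13.7 points (0.97 to 25.7), cenpt site 1, with -19.1 points (-34.3 to -2.78), and plk1 site 5, with -2.08 points (-4.03 to -0.12). The site for 5 and 20 ng was incenp site 1, with 1.69 points (0.18 to 3.21). At plk1 site 3 the lower inputs differed from each other by -0.56 points for 5 and 10 ng (-2.89 to 1.75), 0.65 for 5 and 20 ng (-1.56 to 2.85) and 1.21 for 10 and 20 ng (-1.10 to 3.53). These intervals leave room for differences of up to 3.53 points between lower inputs at that site. At zwilch site 3, with 97 and 107 reads, the interval for 10 and 20 ng ran from -12.2 to 11.2 points. Even the difference of 13.7 points for 5 and 10 ng was not called there, so a lack of calls at this depth does not show equal levels.

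Coverage was not a value by which the genes were chosen, beyond the depth that a call requires, and it varied along plk1. Over sites with at least 1000 reads at 100 ng, the median ratio of reads to those at 100 ng was 0.199, 0.206 and 0.241 for 5, 10 and 20 ng. At plk1 site 1 the ratio was 0.127 with 5 ng (95% counting interval 0.121 to 0.134), 0.126 with 10 ng (0.120 to 0.132) and 0.160 with 20 ng (0.153 to 0.168). At site 3 it was 0.333, 0.277 and 0.333, and at site 4 it was 0.349, 0.280 and 0.317. The ratio was thus below the list median at site 1 and above it at sites 3 and 4, at each of the 3 inputs. At site 6, the most downstream, it was 0.243, 0.201 and 0.234. The most upstream site had 0.522, 0.625 and 0.684 times the ratio of the most downstream one at 5, 10 and 20 ng. Over the 403 to 421 genes with 2 or more sites of at least 1000 reads at 100 ng, the outermost of these at least 1000 nt apart, the median of this quotient was 0.883, 0.959 and 0.958, with lower quartiles of 0.710, 0.834 and 0.822. It was below 1 in 63.5%, 57.3% and 57.5% of these genes. The plk1 values were below the lower quartile at each input, which is a description, since genes are not replicates and the 3 ratios share the 100 ng reads. In incenp the quotient of site 1 over site 2 was 0.577, 1.07 and 0.923, with ratios of 0.167 at 5 ng and 0.247 and 0.253 at 10 and 20 ng at site 1. The 2 plk1 sites with the highest coverage ratio were the TCCA site and site 4. A part of coverage in the level differences was not tested.

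**Figure D4:**
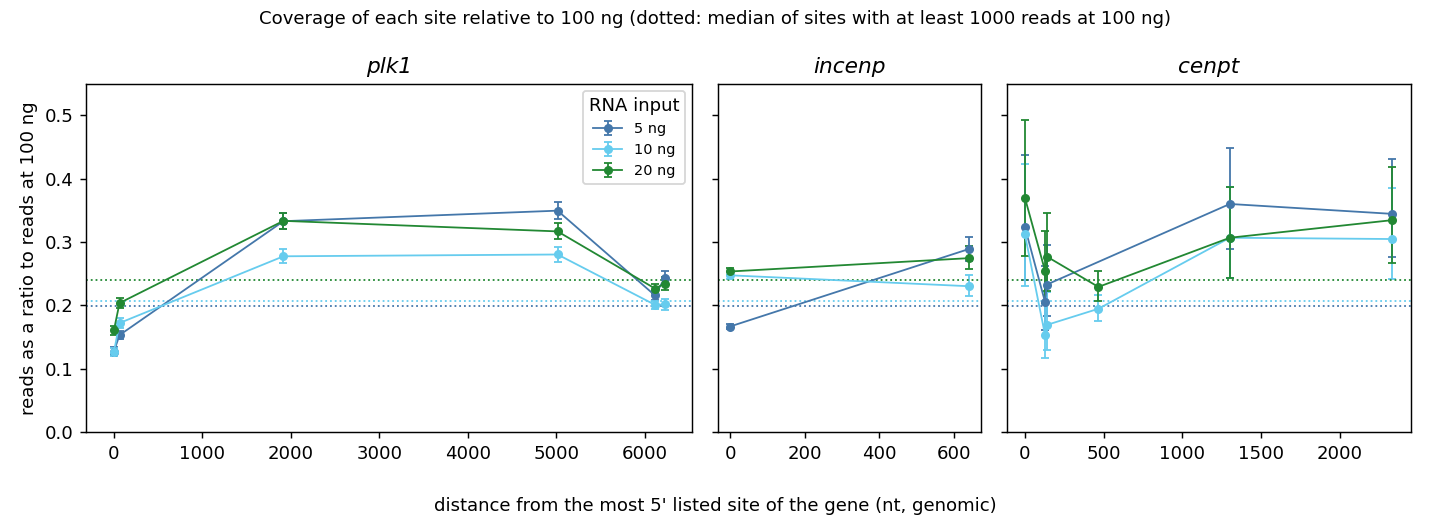
Reads at each site divided by the reads at 100 ng, at 5, 10 and 20 ng, against distance (nt of genome) from the most upstream listed site of plk1, incenp and cenpt. Bars are 95% counting intervals and dotted lines the median ratio of all sites with at least 1000 reads at 100 ng. In plk1 the first site lies at 0.126 to 0.160 and the sites near the middle at 0.277 to 0.349.

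The mean level of a gene was taken over its sites present in every list, each site weighted equally. For plk1 (6 sites) it was 29.6 ± 0.635% with 5 ng, 30.04 ± 0.666% with 10 ng, 29.8 ± 0.617% with 20 ng and 30.9 ± 0.301% with 100 ng, where ± is the distance from the mean to either end of its 95% counting interval. For incenp (2 sites) it was 47.3 ± 1.496%, 49.7 ± 1.55%, 47.9 ± 1.46% and 51.8 ± 0.715%. For cenpt (5 sites) it was 48.3 ± 3.61%, 50.1 ± 4.45%, 49.3 ± 3.78% and 46.5 ± 2.01%. The means of plk1 and incenp were highest at 100 ng, with intervals that overlapped that of 10 ng and no other, and the cenpt intervals all overlapped. These means include plk1 site 3, incenp site 2 and cenpt site 7, the sites by which the genes were chosen. Nothing is therefore read from the order of the inputs. Weighted by reads, plk1 (31.6%) was highest at 10 ng and incenp (36.0%) at 5 ng. Zwilch had a single such site, given above. Among 1446 other genes with at least 2 sites of at least 50 reads in every list, the genes closest to plk1 in mean level were qsox2, kmt2b and ccne1, with root mean square differences over the 4 lists of 0.355, 0.510 and 0.537 points. Of these, ccne1 encodes cyclin E1, which acts with Cdk2 in the early cycles, and kmt2b a histone methyltransferase. The closest to incenp were prpf4b, gnb4 and fbxo33 (0.760, 0.957 and 1.37 points) and to cenpt snrnp70, jmjd3 and MGC89226 (0.998, 1.12 and 1.12 points). The closest to zwilch among 2846 genes with at least 1 such site were dopey1, mff and ap1g1, at 3.42 to 3.75 points, which is a looser match. The likeness was ranked and not tested.

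The 4 genes were set beside 76 symbols of their complexes and circuits, which include alternative names such as knl1 and casc5 and of which 51 had a listed site at 100 ng. The share of all annotated genes with a listed site was not determined. Nothing is therefore read from this count or from those of the groups below. The partners had 111, 116, 109 and 142 sites for 5, 10, 20 and 100 ng, and a median level of 21.9% with 100 ng, against 20.9% over the whole list. In the chromosomal passenger complex, aurkb, the kinase that INCENP binds, had 3 sites with a median of 12.7%, birc5.1, a survivin, 1 site with 10.4% and birc5.2, the other survivin, 1 site with 72.2% (52/72 reads). Both partners of Zwilch in its complex had sites, zw10 with 2 and kntc1, which encodes Rod, with 3. In the constitutive centromere network 7 of 16 symbols were listed, cenpc and cenpi among them, and the highest site was in cenpm (83.0% with 100 ng, 619/746 reads). The centromeric histone gene cenpa was listed at 5 ng (11.7%) and 10 ng (13.2%) and not at 20 or 100 ng. In the outer kinetochore 10 of 16 symbols were listed, with 36 sites, among them ndc80 and nuf2, subunits of the complex that CENP-T binds. The spindle checkpoint had 8 of 9 symbols listed and a median level of 28.7%, and the circuit around plk1 had 19 of 21 and 24.4%. The partner medians of the other groups at 100 ng were 16.7% in the passenger complex and 20.9% in the Rod-Zw10-Zwilch group. They were 20.2% in the centromere network and 19.7% in the outer kinetochore.

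The partners with the most sites at 100 ng were bicd2, a dynein adaptor, with 10, casc5, the kinetochore scaffold also called knl1, with 7, and plk3 and ska1 with 6 each. Partner sites were counted by gene symbol. The highest bicd2 site lay on chromosome 8 at 100 ng and on scaffold_192 at 20 ng, so its 10 sites need not belong to a single locus. At 100 ng the highest level of a partner site with at least 50 reads was in cdc20, the activator of the anaphase-promoting complex (gene700, chromosome 4, position 75093301, minus strand). This site was at 94.0% with 5 ng (1122/1193 reads), 95.7% with 10 ng (583/609 reads), 95.4% with 20 ng (701/735 reads) and 93.5% with 100 ng (996/1065 reads, 91.9 to 94.9%). It was below cenpt site 7 at 5 and 100 ng and above it at 10 and 20 ng, with more reads in each list. The next genes by their highest site at 100 ng were zw10, at 89.9% with 100 ng alone (62/69 reads), and the checkpoint kinase gene ttk. The ttk site at position 79622786 of chromosome 5 was at 100% with 10 ng (26/26 reads), 81.8% with 20 ng (27/33 reads) and 88.7% with 100 ng (94/106 reads), and was not listed at 5 ng. Another ttk site, at position 79633067, was the highest of that gene at 5 ng (96.3%, 79/82 reads) and at 20 ng (94.3%, 50/53 reads).

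Between lower inputs, 0 of 79 partner sites differed for 5 and 10 ng, 0 of 78 for 5 and 20 ng and 0 of 80 for 10 and 20 ng by Fisher's exact test, with 4, 7 and 7 sites at an unadjusted p under 0.05. Against 100 ng, 0 of 81 were called at 5 ng, 0 of 81 at 10 ng and 1 of 83, lower, at 20 ng, with 14, 9 and 6 at an unadjusted p under 0.05. Over all sites, an unadjusted p under 0.05 was seen at 7.21%, 6.66% and 6.54% between lower inputs. Against 100 ng it was 8.75%, 8.61% and 7.4%. The shares called over all sites were 0.0146%, 0.0279% and 0.0429% between lower inputs, and 0.278%, 0.0406% and 0.15% against 100 ng. The called site, named after its values were seen, lies in the cyclin B2 gene ccnb2 (gene5292, chromosome 3, position 89282338, plus strand). Its level was 30.9% with 5 ng (1965/6362 reads), 31.0% with 10 ng (1547/4991 reads), 30.3% with 20 ng (1667/5509 reads) and 33.3% with 100 ng (6934/20807 reads), with an adjusted p of 0.0150 by Fisher's exact test at 20 ng. All 3 lower inputs lay below 100 ng there, but the site was picked for its call and the 3 share the 100 ng list, so nothing is read from this. The median difference of the partner sites from 100 ng was -0.33, -0.32 and -0.40 points at 5, 10 and 20 ng, against -0.26, 0.01 and 0 points over all sites tested. Over all sites with at least 1000 reads in both lists it was -0.45, -0.24 and -0.17 points. Depth was not matched between partner sites and all sites, so nothing is read from these gaps.

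**Figure D5:**
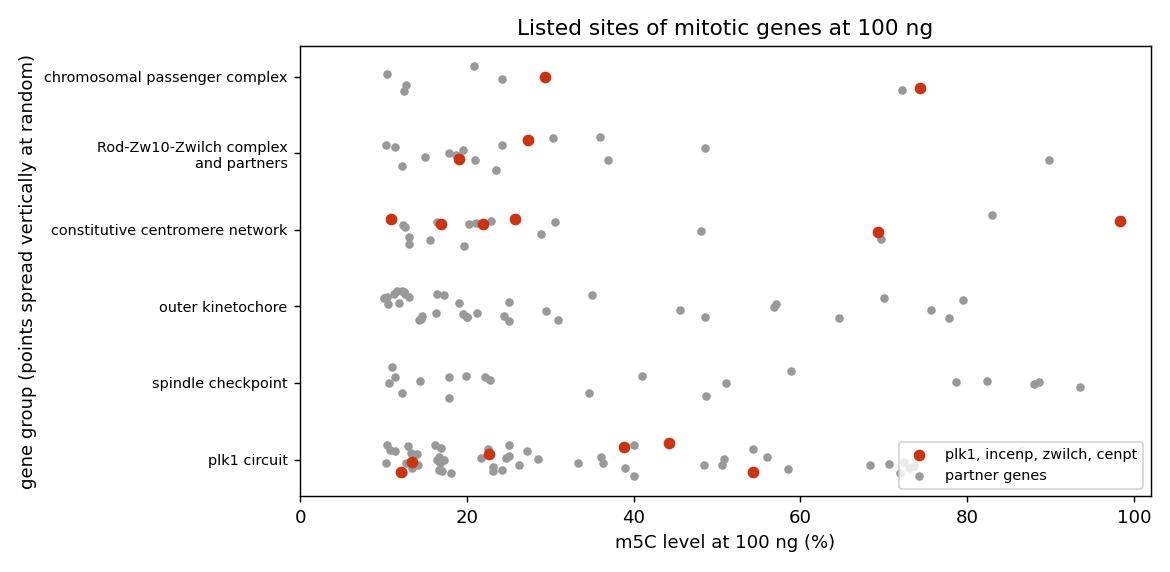
m5C level (%) at 100 ng of every listed site of plk1, incenp, zwilch and cenpt and of their partner genes, by gene group. Each point is a site and points are spread vertically at random. The levels reach 98.3%, with the cenpt site at 98.3% and the cdc20 site at 93.5% the highest.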

How the data were processed

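The authors trimmed reads with cutadapt and Trimmomatic, aligned them by HISAT2 to an in silico converted Xenbase X. tropicalis v9.1 genome, used Bowtie2 and a converted transcriptome for what was left, and kept sites by filters on quality, remaining cytosines per read, conversion-resistant genes and a binomial test. Mapping to a converted reference and the filter on remaining cytosines can lower levels in dense clusters. The deposited lists give, per site, a read count (C plus T), the m5C level as the fraction of unconverted reads, and the p-value of the call, at most 0.000892, which was not used. The files do not say whether positions count from 0 or from 1.

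Unconverted reads were level times coverage, whole to within 2.6e-05 reads. Lists were joined by chromosome, position and strand. Fisher's exact test (SciPy 1.17.1, Python 3.11.15) was run on all sites with at least 50 reads in both lists, the minimum of the study's input comparison, and adjusted over each pair with a threshold of 0.05. The test sets single libraries side by side, so it says nothing of inputs in general. It was tried on simulated data that held counting error alone. That trial cannot show how the test acts under the variance factor of 1.42 given below. The members, the gene lists and the alternatives were chosen with earlier results of these data known. All sites of the 4 genes are given. Partners named are those with the most sites and the highest levels at 100 ng, and likeness is the root mean square difference in mean level. Alternatives were coverage minimums of 20 and 100 reads, level and coverage minimums for listed sites, weighted means, and a normal test with the binomial variance multiplied by 1.42, a factor estimated between lower inputs at sites of at least 30%.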

Additional observations from a re-analysis of the deposited data

How the results depend on the processing

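The gene means moved with the weighting and with the sites included. Weighted by reads, plk1 had 31.3%, 31.6%, 31.0% and 31.5% at 5, 10, 20 and 100 ng, so that 100 ng was no longer highest. In the same way incenp had 36.0%, 33.5%, 32.9% and 34.0%, dominated by the deeper site 1, and 5 ng was then highest. The read-weighted level of cenpt was 54.8%, 56.4%, 51.2% and 46.2% at 5, 10, 20 and 100 ng. Over all sites of each own list zwilch had 24.2% at 5 ng and 23.1% at 100 ng, and cenpt 39.4%, 43.1% and 40.5% at 10, 20 and 100 ng. Beside the sites of every list, these means take in zwilch site 2 at 5 ng (11.1%) and zwilch site 1 at 100 ng (27.3%). For cenpt they take in site 4 (10.9 to 12.1%) and, at 10 ng, site 6 (13.6%). Why levels differed between lists was not tested. With at least 50 reads at 100 ng, 100% of the sites of the 4 genes at 100 ng were found at 10 ng. With the variance factor, 0 of the 4 genes' sites were called at 10 ng and 1, plk1 site 3, at 20 ng, and 2 at 5 ng, plk1 site 3 and incenp site 2. A minimum of 20 reads also gave 2 calls at 5 ng against 100 ng, and the 20 and 100 read minimums left the other counts against 100 ng as they were. No call between lower inputs appeared with a minimum of 20 or 100 reads or with the factor. No library could be left out, since the pair at 100 ng shares a single list. No paired analysis was possible because the lists carry no shared replicate numbers.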
